A study of Mus musculus with 32 samples.

Results

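The Hox cluster genes were followed across every group of the study. A gene was taken as a member when its symbol was Hoxa, Hoxb, Hoxc or Hoxd with a number from 1 to 13. Of 38 such genes analysed here, 27 were listed in at least 1 of the 5 deposited tables, out of 17440 listed genes in all. The other 11 (Hoxa5, Hoxa6, Hoxa11, Hoxb1, Hoxb2, Hoxb3, Hoxb5, Hoxb6, Hoxb8, Hoxd3 and Hoxd12) were listed in no table, and the rule by which the authors listed genes is not given in the sources used here. A mean of at least 10 normalised counts over the libraries of a table was asked before a gene was tested, and 23 members met this in at least 1 table.

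Hox genes encode homeodomain transcription factors that give cells their position along the body axis. They lie in 4 clusters, and their order on the chromosome follows the order of their expression along the body, from anterior genes (groups 1 to 3 here) through central genes (groups 4 to 8) to posterior genes (groups 9 to 13). In pluripotent cells the clusters are held largely silent by Polycomb proteins, retinoic acid and Cdx factors are known activators of the anterior and central genes, and CTCF sites inside the clusters are known to form borders between active and silent stretches. In the GRCm38 annotation the analysed genes of the HoxA cluster lie at chr6:52162417-52260880 (10 genes), HoxB at chr11:96194316-96368256 (10 genes), HoxC at chr15:102921103-103036852 (9 genes) and HoxD at chr2:74668310-74765142 (9 genes).

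All groups were E14 mouse embryonic stem cells with an auxin-inducible degron (AID), which marks the tagged protein for breakdown once an auxin is added, and each group had 2 libraries. CTCF AID cells (CTCF binds DNA and anchors chromatin loops) were given 500 µM indole-3-acetic acid (IAA) for 0, 12 or 24 h, and RAD21 AID cells (RAD21 is a cohesin subunit) 1 µM 5-Ph-IAA for the same times. Further CTCF AID cells were labelled as serum culture with 0 or 12 h of IAA, carried a hairpin against Chd4 (a chromatin remodeller) or a control hairpin, or overexpressed a control, wild-type CTCF or mutated CTCF with or without IAA. The labels give no clone, no mutation and no untagged cells treated with an auxin, and all libraries, also those labelled serum, carry the same growth protocol, a serum-free medium with LIF, PD0325901 and CHIR99021. In the overexpression series the treatment label contradicts the title in 4 libraries (mutated CTCF without IAA, and wild-type CTCF with IAA); the groups follow the titles.

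Library totals of normalised counts lay between 15364584 and 19642332, and r between the 2 libraries of a group was 0.983 to 0.992 across genes. The labels do not say that replicates were separate cultures, so p-values measure the spread between these libraries, which may be technical; an exact permutation test of 2 against 2 cannot go below 0.333. All 9 embryonic stem cell markers were listed in every table. The degron acts on the protein, so the transcript of the tagged gene does not check the treatment: mean Ctcf was 3277 at 0 h and 4014 at 12 h of IAA (adjusted p = 0.0083), and mean Rad21 was 4338 and 4135 in RAD21 AID cells (adjusted p = 0.265). Chd4 fell from 9923 and 9526 to 3379 and 3729 with its hairpin. In bulk RNA, fewer cells that express a gene and less RNA per cell cannot be told apart.

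The promoters of 3 HoxA genes whose transcripts fell after CTCF degradation are shown first, since they stand for the anterior and the posterior genes that moved and no annotated exon covers their windows. Each is the 250 bases before the transcript start in RefSeq (GRCm38.p6), on the minus strand and 5′ to 3′, with CpG pairs in capitals. The windows are chr6:52164832-52165081 for Hoxa2, chr6:52227371-52227620 for Hoxa9 and chr6:52234940-52235189 for Hoxa10. Those of Hoxa9 and Hoxa10 belong to starts inside the annotated genes. Hoxa10 has another window, not shown, at the annotated gene start (chr6:52240855-52241104, 7 CpG pairs).
Hoxa2: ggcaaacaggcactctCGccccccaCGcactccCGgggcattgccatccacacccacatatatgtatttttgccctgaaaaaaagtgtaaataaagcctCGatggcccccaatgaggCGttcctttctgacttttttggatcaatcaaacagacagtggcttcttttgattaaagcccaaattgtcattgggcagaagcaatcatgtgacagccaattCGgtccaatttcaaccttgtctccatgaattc
Hoxa9: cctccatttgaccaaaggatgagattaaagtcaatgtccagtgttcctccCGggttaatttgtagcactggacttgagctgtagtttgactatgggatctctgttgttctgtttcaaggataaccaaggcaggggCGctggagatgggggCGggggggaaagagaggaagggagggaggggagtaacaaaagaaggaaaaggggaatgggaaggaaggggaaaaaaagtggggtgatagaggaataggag
Hoxa10: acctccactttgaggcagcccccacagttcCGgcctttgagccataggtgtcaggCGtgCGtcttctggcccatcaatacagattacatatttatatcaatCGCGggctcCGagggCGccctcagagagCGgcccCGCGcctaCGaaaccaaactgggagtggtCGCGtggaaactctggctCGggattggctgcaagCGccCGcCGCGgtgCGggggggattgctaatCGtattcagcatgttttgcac
These 3 windows held 6, 3 and 20 CpG pairs. RefSeq windows of 300 bases (250 before to 50 after the start) were present for 22 Hox genes, in 24 windows, and these had a median of 14.5 CpG pairs against 7 over all 32851 windows.

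A 12-base CTCF core (CC, any 3 bases, AG, any 2 bases, GGC) was searched on both strands of the same windows. It was found in 4 of 24 Hox windows (16.67%) and in 8.61% of all windows. Over the genes listed in a table it was found in 2 of 17 windows (11.76%), since the other matches lie at Hoxa11 and Hoxd3, which were listed in none. None of the windows of Hoxa2, Hoxa3, Hoxa7, Hoxa9 or Hoxa10 held it. The matches at the starts of Hoxa11, Hoxc4 and Hoxd11 are shown with the core in capitals and 9 bases on each side, all on the minus strand (chr6:52245975-52246004, chr15:103034313-103034342 and chr2:74682073-74682102).
Hoxa11: tgttgcttcCCCTGAGGTGGCtacaaagaa
Hoxc4: cctctccggCCTCCAGTGGGCcccgtgggc
Hoxd11: cagggcactCCCTGAGCAGGCtgcgctgca
The core lay 185 to 174 bases before the start of Hoxa11, 73 to 62 before that of Hoxc4 and 241 to 230 before that of Hoxd11. The starts used for Hoxc4 and Hoxd11 lie inside the annotated genes. The other Hoxd11 window, at the annotated gene start (chr2:74679308-74679607), held no match. A match is a run of letters in this window and not evidence of a bound site.

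After 12 h of IAA in CTCF AID cells, all 5 tested HoxA genes fell, and none of the 13 tested genes of the other 3 clusters passed the test. Thus 0 of 18 tested members rose and 5 fell, where 17.8% of all 13699 tested genes were called and 8.4% were lower. The absence of calls outside HoxA held in the main analysis and not in every alternative: Hoxd13 and Hoxb13 were called at 12 h in the fit of only the compared groups (adjusted p = 0.0192 and 0.0273), Hoxd13 with a pseudocount of 5 (adjusted p = 0.0469) and Hoxb7 with the replicate block (adjusted p = 0.0361). The summed HoxA level went from 225 ± 17.7 (SD, n = 2) to 26.7 ± 3.37 at 12 h and 38.6 ± 4.50 at 24 h. Anterior, central and posterior members fell alike in direction, from Hoxa2 to Hoxa10. All 5 passed the filter only through the 0 h group, where they were high, so their falls were in part set by the filter. A HoxA gene low at every time could not be among them.

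Hoxa2, an anterior gene that sets branchial arch and hindbrain identity, went from 25.1 and 18.4 normalised counts at 0 h to 4.96 and 4.32 at 12 h and 6.79 and 6.77 at 24 h. Hoxa2 differed by -1.997 (SE 0.45, adjusted p = 0.024) and -1.53 (SE 0.45, adjusted p = 0.049) on the log2 scale. Hoxa3, needed for thymus and parathyroid formation, stood at 49.96 and 58.6, then 7.92 and 7.78, then 5.62 and 16.8. For both anterior genes the 0 h libraries lay above all treated libraries. Hoxa3 differed by -2.64 (SE 0.51, adjusted p = 0.0144) at 12 h and -2.35 (SE 0.51, adjusted p = 0.018) at 24 h.

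Among central genes, Hoxa7, a trunk gene, stood at 40.3 and 47.7 at 0 h, at 10.8 and 8.13 at 12 h and at 12.7 and 7.41 at 24 h. Its log2 difference was -2.11 (SE 0.41, adjusted p = 0.0144) and then -2.06 (SE 0.41, adjusted p = 0.0128). Hoxa4 was listed at 13.6 and 10.5, then 0 and 0.862, then 5.66 and 2.26, and its mean was under the filter. Without the filter, Hoxa4 was called at 12 h (log2 difference -3.25, SE 0.69, adjusted p = 0.0204) and not at 24 h (-1.47, adjusted p = 0.176), so that 6 of 21 listed members were called at 12 h against 17.2% of all listed genes.

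The largest differences among the members were at the posterior end. Hoxa9, a regulator of blood progenitors, went from 42.7 and 74.6 to 3.00 and 0.524 at 12 h and stood at 3.39 and 6.15 at 24 h. Hoxa9 differed by -4.54 (SE 0.64, adjusted p = 0.0041) at 12 h and -3.36 (SE 0.64, adjusted p = 0.0109) at 24 h. Hoxa10, known from limb and uterus patterning, went from 41.4 and 28.2 to 2.37 and 2.72 and then 1.19 and 2.38. Hoxa10 differed by -3.31 (SE 0.54, adjusted p = 0.0077) and -3.69 (SE 0.54, adjusted p = 0.0040). Neither gene's treated libraries reached its 0 h libraries, and both treated levels are a few normalised counts, where the log2(value + 1) scale understates the change.

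The plot of HoxA values by time shows these steps beside those of RAD21 AID cells.

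**Figure D1:**
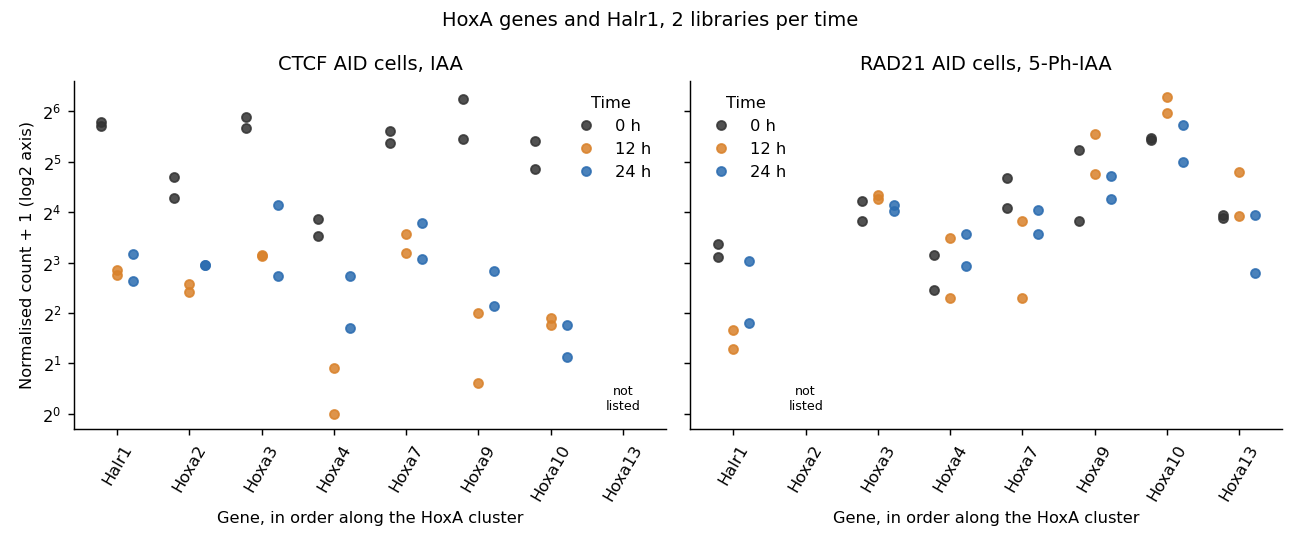
Normalised counts + 1 (log2 axis) of Halr1 and HoxA genes, in order along the chromosome, in CTCF AID cells with IAA (left) and RAD21 AID cells with 5-Ph-IAA (right); each point is 1 of 2 libraries at 0, 12 or 24 h. On the left every 0 h point lies above the treated points of its gene. On the right no tested gene was called, and the times lie apart for some genes. Among these are Hoxa10, with 12 h above 0 h, and Halr1, with 12 h below 0 h.

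Between 12 and 24 h no member was called (0 of 18, 0 at an unadjusted p under 0.05), where 0.146% of all genes were called and 14.1% reached the unadjusted p. Hoxa2, Hoxa3, Hoxa7, Hoxa9 and Hoxa10 passed the filter only through the 0 h group, as did Hoxb7. A fall in these genes was thus in part set by the filter. Exons of other annotated genes cover 20.4% of the Hoxa7 exons (Hoxaas3, opposite strand) and 15.04% of those of Hoxa2 (Gm28308, same strand) and 15.997% of those of Hoxa4 (Gm29430, opposite strand), and 5 genes cover between 4.86% and 8.36% each of those of Hoxa3, so reads of these pairs may be mixed. Leaving out 1 library at a time, 1 member was called at 12 h without 0 h replicate 1, and 2 without 0 h replicate 2, 12 h replicate 1 or 12 h replicate 2, while the share of all genes called fell to between 7.35% and 8.00%. Hoxa9 remained called at 12 h in each of these fits, Hoxa10 in all but the one without 0 h replicate 1, and Hoxa2, Hoxa3 and Hoxa7 in none.

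In the HoxB, HoxC and HoxD clusters 12 of 13 tested genes had a negative log2 difference at 12 h, and 4 of these reached an unadjusted p under 0.05, a share near the 32% of all genes that did. The median over the 13 genes was -0.47, against 0.00053 over all genes tested. Hoxd13, the most posterior HoxD gene and a digit regulator, stood at 54.4 and 41.2 at 0 h, 12.9 and 15.6 at 12 h, and 3.38 and 12.4 at 24 h. Hoxd13 was not called at 12 h (log2 difference -1.67, SE 0.56, adjusted p = 0.085) and fell at 24 h (-2.66, SE 0.56, adjusted p = 0.0157), and it is among the genes called at 12 h in the alternatives above. With it, 6 of 18 tested members were lower at 24 h and 0 higher, where 22.5% of all genes were called and 10.8% were lower. At 24 h 2 members were called without 0 h replicate 1 (Hoxd13, Hoxa2, Hoxa3 and Hoxa7 lost) and 1 without 0 h replicate 2 (Hoxa9 lost as well), while the share of all genes called fell to 11.4% and 10.9%.

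Hoxb7, a trunk gene, went from 17.7 and 25.3 to 0.990 and 6.87 at 12 h without passing the test (log2 difference -2.49, SE 0.82, adjusted p = 0.080). Hoxb13, a tail-end gene of the B cluster, stood at 58.5 and 71.9, then 29.8 and 25.1, then 26.0 and 61.9 (12 h difference -1.22, SE 0.41, adjusted p = 0.088). Hoxd9 stood at 49.1 and 41.2, then 27.8 and 25.1, then 30.5 and 47.3 (12 h difference -0.75, adjusted p = 0.149).

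Hoxb9, Hoxc13 and Hoxc4, the most abundant members outside HoxA, and Hoxd8 stayed within a narrow range. Hoxb13, which stood near the level of Hoxd8 at 0 h, did not. Hoxb9 stood at 194 and 235, 189 and 197, and 181 and 170 at the 3 times, with a 12 h log2 difference of -0.15 (95% interval -0.49 to 0.19). Hoxc13, a hair and nail gene, stood at 214 and 208, 195 and 202, and 182 and 239, with a difference of -0.09 (interval -0.47 to 0.29). Hoxc4 stood at 133 and 127, 109 and 113, and 123 and 114 (difference -0.22, adjusted p = 0.371). Hoxd8 stood at 60.1 and 50.3, 44.8 and 55.9, and 56.5 and 47.0 (difference -0.13). The remaining tested members (Hoxb4, Hoxc5, Hoxc10, Hoxc11 and Hoxc12) had 12 h differences from -0.53 to 0.42, none called. The difference between HoxA and the other clusters was not itself tested.

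**Figure D2:**
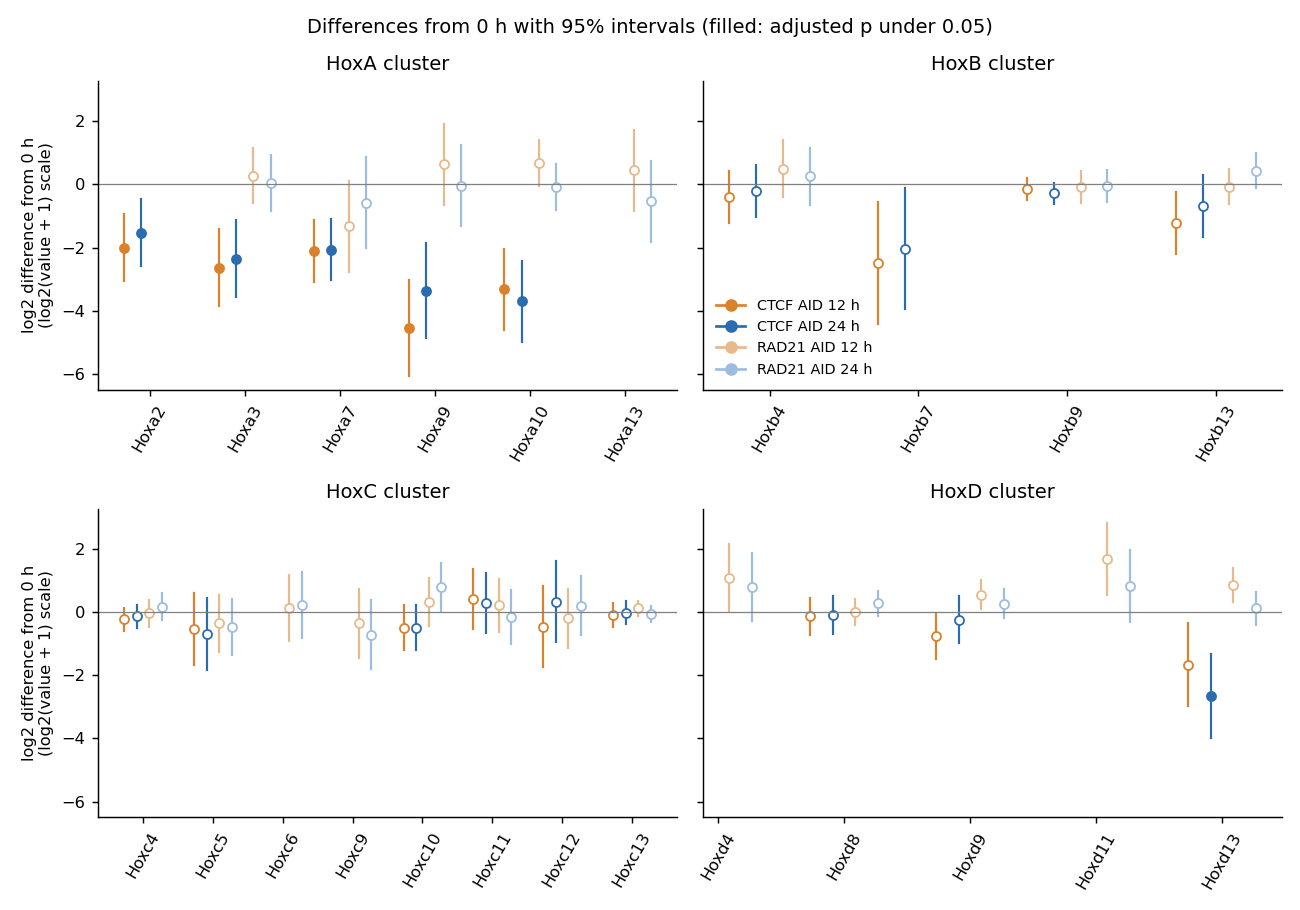
Log2 difference from 0 h (log2(value + 1) scale) of each tested Hox gene with its 95% interval, by cluster and in order of paralogue number, after 12 and 24 h in CTCF AID and RAD21 AID cells; filled points have an adjusted p under 0.05. The filled points are the 5 HoxA genes at both times and Hoxd13 at 24 h, all in CTCF AID cells.

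Halr1, a non-coding gene 48.7 kb from the nearest HoxA gene analysed (chr6:52102949-52113684), moved in the same direction. It stood at 54.4 and 51.4 at 0 h, 6.20 and 5.72 at 12 h, and 5.22 and 8.00 at 24 h, a log2 difference of -2.95 (SE 0.40, adjusted p = 0.0036) and then -2.85 (SE 0.40, adjusted p = 0.0034). Halr1 passed the filter only through its 0 h group, so its fall was in part set by the filter. Of the 4 tested genes within 500 kb of HoxA, 0 rose and 2 fell at 12 h, where 17.8% of all genes were called and 8.4% were lower. The other, Skap2, which lies 149.9 kb away and encodes a signalling adaptor, fell by 0.37 on the log2 scale (adjusted p = 0.030), while Hibadh (-0.06) and Tax1bp1 (-0.02) on the far side were not called.

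Genes known to act on Hox clusters were counted in lists. At 12 h of IAA in CTCF AID cells 17.8% of all genes were called and 8.4% were lower. Of 12 tested genes of the retinoic acid pathway 1 rose and 3 fell at 12 h (list median -0.56). Stra8, a retinoic acid target, went from 2162 and 1938 to 273 and 271 (log2 difference -2.91, SE 0.14), and Rarb, a retinoic acid receptor, from 35.3 and 30.1 to 2.42 and 0 (-4.18, SE 0.91, adjusted p = 0.022). Of 3 tested Cdx and Evx regulators, Cdx1, an activator of Hox genes, fell from 878 and 1005 to 321 and 321 (-1.54, SE 0.10). The mesoderm gene T rose from 8.93 and 6.81 to 54.0 and 82.7 (2.95, SE 0.30, adjusted p = 0.0012). T lay under the filter at 0 h and passed it through treated libraries, so its rise was in part set by the filter. Among 8 TALE genes, whose products bind DNA together with Hox proteins, 0 rose and 2 fell, Pknox2 by a log2 difference of -1.22 (SE 0.25) and Pbx2 by -0.75 (SE 0.11).

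Of the 12 Polycomb PRC2 genes 3 rose and 3 fell, and of the 19 PRC1 genes 1 rose and 3 fell. Of the 10 MLL and trithorax genes 1 rose and 0 fell, where 17.8% of all genes were called. The mesoderm markers (2 of 5 listed, with Mesp1, Msgn1 and Tbx6 not listed) summed to 17.3 to 28.8 at 0 h, 64.0 to 101 at 12 h and 142 to 161 at 24 h, and the neural markers (3 of 4 listed) to 925 to 937, 1437 to 1473 and 1072 to 1221. The trophoblast markers (2 of 4 listed) summed to 1240 to 1269 at 0 h, 991 to 1077 at 12 h and 1077 to 1138 at 24 h. The part of these changes in the HoxA result was not tested.

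After RAD21 degradation no Hox gene was called at either time. At 12 h 0 of 21 tested members passed (4 at an unadjusted p under 0.05), where 13% of all 13738 genes were called and 30.1% reached the unadjusted p, and at 24 h 0 of 21 (1 unadjusted), where 13.7% were called and 29.8% reached the unadjusted p. Between 12 and 24 h the count was 0 (2 unadjusted), where 15.9% of all genes were called and 31.6% reached the unadjusted p. The summed HoxA level was 124 ± 29.8 (SD, n = 2) at 0 h, 160.3 ± 17.4 at 12 h and 111 ± 16.5 at 24 h.

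Hoxa9 stood at 13.1 and 36.4 at 0 h, 26.0 and 45.9 at 12 h, and 25.3 and 18.1 at 24 h, and its libraries overlapped between the times. Hoxa10 stood at 42.0 and 43.6, 77.2 and 62.0, and 30.9 and 52.0 (12 h difference 0.68, 95% interval -0.04 to 1.40). Hoxa3 (13.2 and 17.7 at 0 h), Hoxa7 (16.03 and 24.7) and Hoxa13 (13.7 and 14.3) had 12 h differences of 0.28, -1.33 and 0.45, none called. The CTCF AID and RAD21 AID tables were normalised separately, so the difference between the responses was not tested. The 12 h intervals after CTCF and after RAD21 degradation were -6.05 to -3.03 and -0.64 to 1.90 for Hoxa9, and -4.60 to -2.03 and -0.04 to 1.40 for Hoxa10. They were -3.85 to -1.43 and -0.60 to 1.16 for Hoxa3, and -3.08 to -1.14 and -2.77 to 0.10 for Hoxa7, whose intervals overlap.

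The HoxD genes had the largest positive values at 12 h. Their summed level was 242 ± 9.53 (SD, n = 2) at 0 h, 355 ± 12.2 at 12 h and 302 ± 2.07 at 24 h. Over the same times the endoderm markers (3 of 4 listed, Foxa2 not) summed to 54.7 to 66.3, 92.3 to 105 and 59.8 to 88.1, the fibroblast markers (3 of 5 listed) to 74.7 to 81.8, 98.9 to 114 and 90.8 to 139, and the trophoblast markers (1 of 4 listed, Tfap2c) to 647 to 728, 483 to 514 and 330.5 to 383; their part in the HoxD values was not tested. Hoxd13 stood at 50.8 and 43.8, then 90.9 and 81.1, then 46.3 and 56.4 (12 h difference 0.85, SE 0.23, adjusted p = 0.0523), and it was called in 1 alternative, quantile normalisation. Hoxd11 stood at 4.48 and 6.92, then 25.6 and 15.8, then 10.2 and 11.2 (1.68, SE 0.49, adjusted p = 0.066). The mean of Hoxd11 over its 0 h and 24 h libraries was under the filter, so it was tested only through its 12 h group, where it was high. Hoxd9 stood at 73.9 and 91.1, then 112 and 129, then 106 and 92.0 (0.55, adjusted p = 0.112), and Hoxd4 at 6.36 and 12.8, then 21.9 and 19.1, then 15.8 and 17.2 (1.09, adjusted p = 0.159). At 12 h both libraries of these 4 genes lay above both 0 h libraries, as did those of 30.1% of all genes, and Hoxd8 (85.0 and 87.8 at 0 h, difference 0.00) did not share this. Exons of Hoxd4 overlap those of Hoxd3, Gm28230 and Hoxd3os1, so its reads may be mixed with theirs.

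Of the HoxB and HoxC members, Hoxc13 stood at 303 and 297, 320 and 329, and 279 and 296, Hoxc4 at 120 and 114, 128 and 100, and 133 and 131, and Hoxb9 at 81.0 and 71.7, 74.3 and 68.9, and 65.2 and 84.0. Hoxb4, Hoxb13, Hoxc5, Hoxc6, Hoxc9, Hoxc10, Hoxc11 and Hoxc12 had 12 h differences between -0.36 and 0.49. Cdx1 fell from 381 and 414 to 159 and 122 at 12 h (-1.504, SE 0.17, adjusted p = 0.0040) and stood at 124 and 150 at 24 h. Of 9 tested retinoic acid genes 0 were called at 12 h, and 0 rose and 2 fell at 24 h, where 13% and 13.7% of all genes were called. Stra8 differed by -1.41 at 24 h (SE 0.14, adjusted p = 0.0019). Halr1 was under the filter, at 7.66 and 9.36, 2.16 and 1.45, and 7.17 and 2.47.

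In the libraries labelled serum 4 members were listed, Hoxb9, Hoxb13, Hoxc13 and Hoxd13, and 0 of the 4 was called after 12 h of IAA (1 at an unadjusted p under 0.05), where 17% of all 14494 genes were called and 31.5% reached the unadjusted p. Hoxb13 stood at 6.38 and 5.30 without and at 16.1 and 18.5 with IAA (log2 difference 1.42, SE 0.40, adjusted p = 0.0516). Its treated libraries lay above the untreated ones, and it passed the filter only through its treated group. Hoxb9 stood at 38.5 and 32.4 and then 23.0 and 29.8 (-0.42), Hoxc13 at 26.6 and 42.4 and then 37.3 and 25.5 (-0.12), and Hoxd13 at 11.7 and 6.36 and then 16.1 and 10.6 (0.54). Halr1 stood at 224 and 190 and then 181 and 166 (-0.25, adjusted p = 0.239). The mesoderm markers (2 of 5 listed) summed to 34.3 to 45.5 without and 107 to 118 with IAA. The stem cell markers summed to 70519 to 70678 without and 60215 to 61117 with IAA. The endoderm markers (2 of 4 listed) summed to 67.8 to 70.3 and 106 to 120. The fibroblast markers (4 of 5 listed) summed to 604 to 643 and 645 to 712, and the neural markers (4 of 4 listed) to 2136 to 2147 and 2039 to 2073. The part of these markers was not tested.

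With the hairpin against Chd4, 8 of 13 tested members were called, 6 higher and 2 lower, where 67.4% of all 15499 genes were called, 33.5% higher and 33.8% lower. The share of members called is thus near that of all genes. Of the 13 tested members 9 were posterior (groups 9 to 13) and 4 central. The 6 higher members were posterior, and the 2 lower ones, Hoxb4 and Hoxc4, were central. Hoxc10 and Hoxc11 passed the filter only through the Chd4 hairpin group and Hoxb4 only through the control group. The directions of these genes were thus in part set by the filter. Without the filter the anterior gene Hoxa3 was also called higher (log2 difference 2.16, adjusted p = 0.0145), where 67% of all listed genes were called. With quantile normalisation Hoxa9 and Hoxc10 were no longer called and the central gene Hoxb7 was called lower (log2 difference -1.59, adjusted p = 0.0234).

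In HoxC, Hoxc11 rose from 4.48 and 5.89 to 25.7 and 37.1 (log2 difference 2.38, SE 0.39, adjusted p = 0.0016) and Hoxc12 from 13.4 and 11.8 to 58.8 and 59.5 (2.15, SE 0.28, adjusted p = 0.00052). Hoxc10 rose from 6.72 and 7.07 to 25.7 and 15.7 (1.42, SE 0.41, adjusted p = 0.019). Hoxc13 rose from 227 and 248.7 to 451 and 435 (0.90, SE 0.10, adjusted p = 0.00031). In the same cluster Hoxc4, its most anterior member, fell from 88.8 and 104 to 26.7 and 26.2 (-1.82, SE 0.23, adjusted p = 0.00043). Hoxc10 and Hoxc11 passed the filter only through the Chd4 hairpin group, and an exon of Hoxc10 shares bases with Hoxc5 on the same strand.

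In HoxB, Hoxb9 rose from 73.2 and 81.5 to 265 and 269 (1.78, SE 0.15, adjusted p = 6.8e-05), and Hoxb4 fell from 14.5 and 30.6 to 7.36 and 8.25 (-1.34, SE 0.45, adjusted p = 0.035). Hoxb4 passed the filter only through the control group. Hoxb7 (14.5 and 10.6, then 9.19 and 13.2) and Hoxb13 (24.6 and 27.1, then 30.3 and 27.2) were not called. In HoxA, Hoxa9 rose from 10.6 and 12.95 to 42.9 and 24.1 (1.38, SE 0.39, adjusted p = 0.0165). Hoxa3, an anterior gene under the filter, stood at 1.09 and 4.60 and then at 15.99 and 12.7, and was called higher without the filter (2.16, SE 0.56, adjusted p = 0.0145), where 67% of all listed genes were called. Hoxa13 (0.72), Hoxd8 (0.53) and Hoxd13 (0.58) were not called.

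**Figure D3:**
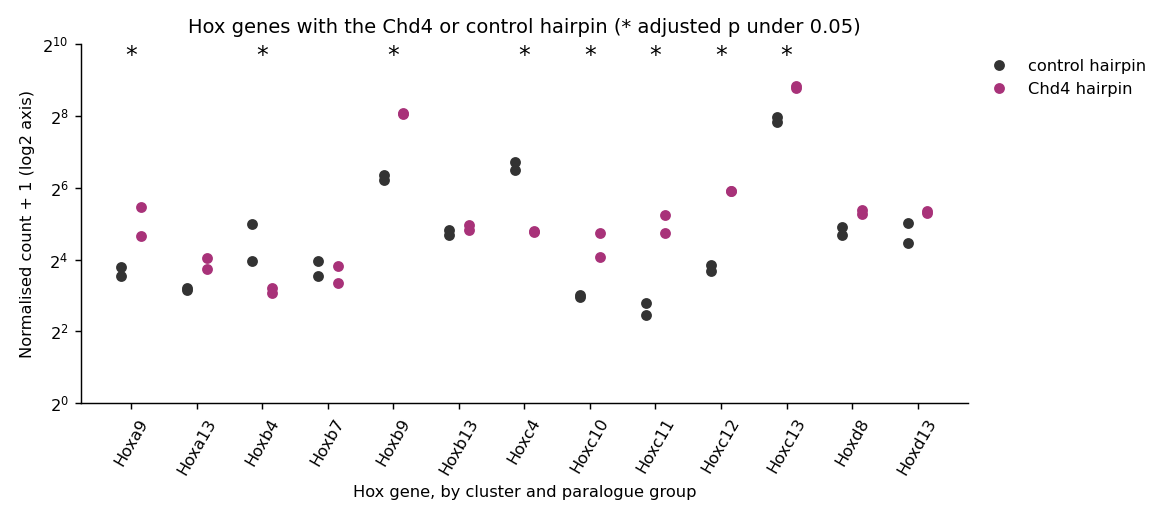
Normalised counts + 1 (log2 axis) of the 13 tested Hox genes with the control or the Chd4 hairpin, by cluster and paralogue number; each point is 1 of 2 libraries and a star marks an adjusted p under 0.05. Hoxc10 to Hoxc13 and Hoxb9 lie higher with the Chd4 hairpin, and Hoxc4 and Hoxb4 lower.

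Without Chd4 hairpin replicate 1, 5 members were called (Hoxa9, Hoxb4 and Hoxc10 lost), and without its replicate 2 or without control replicate 2, 7 each (Hoxb4 lost). The share of all genes called was then 47.6%, 47.9% and 64.6%. In the fit of all libraries, beside which the list counts below stand, 33.5% of all genes were higher and 33.8% lower. Of 11 tested retinoic acid genes 6 rose and 0 fell, with Stra8 at 142 and 134 and then 960 and 943. All 3 tested Cdx and Evx regulators rose, with Cdx1 at 11.2 and 8.25 and then 69.0 and 61.9 (2.64, SE 0.31, adjusted p = 0.00030). Cdx1, and Cyp26b1 among the retinoic acid genes, passed the filter only through the Chd4 hairpin group. A rise of either was thus in part set by the filter. Of 8 TALE genes 3 rose and 1 fell, with log2 differences of 2.83 for Pknox2 and 2.49 for Meis2. Stem cell markers summed to 123781 to 125473 with the control and 78306 to 79505 with the Chd4 hairpin, mesoderm markers (2 of 5 listed) to 15.8 to 44.9 and 87.1 to 108, fibroblast markers (4 of 5 listed, Prrx1 not) to 291 to 359 and 644 to 700, and neural markers (4 of 4 listed) to 936 to 984 and 1665 to 1681. The trophoblast markers (1 of 4 listed, Tfap2c) summed to 1483 to 1577 and 840 to 857, and the endoderm markers (3 of 4 listed) to 67.6 to 75.9 and 88.5 to 115. The part of these markers in the Hox values was not tested.

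In the overexpression series 17 members were listed and 10 tested, and with IAA in the control cells 2 of them were higher, where 25.3% of all 13938 genes were called and 12.8% were higher. Hoxb9 rose from 143 and 143 to 210 and 232 (log2 difference 0.62, SE 0.12, adjusted p = 0.0031) and Hoxb13 from 36.8 and 28.2 to 71.0 and 74.8 (1.15, SE 0.27, adjusted p = 0.0106). Without control replicate 2, or without control IAA replicate 2, Hoxb9 alone was called. Hoxa7 stood at 18.1 and 17.7 without and 13.6 and 6.59 with IAA (-0.85, adjusted p = 0.314). Hoxa3 was under the filter (6.86 and 3.82, then 12.6 and 11.2), and Hoxa2, Hoxa4, Hoxa9 and Hoxa10 were not listed in this table. Halr1 stood at 12.0 and 14.1 and then 10.5 and 19.2, not called.

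With wild-type CTCF 1 of 10 members was called after IAA, where 21.4% of all genes were. Hoxb9 rose from 137 and 130 to 193 and 176 (0.46, SE 0.12, adjusted p = 0.0195), and Hoxb13 stood at 26.9 and 32.7 and then 50.9 and 48.3 (0.72, adjusted p = 0.085). With mutated CTCF the count was again 1 of 10, where 16.2% of all genes were called. Hoxb9 rose from 153 and 164 to 210 and 225 (0.45, SE 0.12, adjusted p = 0.0257), and Hoxb13 stood at 28.5 and 41.2 and then 62.5 and 43.9 (0.60, adjusted p = 0.173). The Hoxb9 call was lost without wild-type replicate 1, wild-type replicate 2 or wild-type IAA replicate 1 in the first case (0 called), and without any 1 of the 4 libraries in the second (0 called). In the control the neural markers (3 of 4 listed) summed to 1492 to 1535 without and 2399 to 2484 with IAA. The mesoderm markers (2 of 5 listed) summed to 90.4 to 108 and 65.9 to 70.2. With wild-type CTCF the neural sums were 1271 to 1299 and 2120 to 2221, the mesoderm sums 144 to 163 and 37.7 to 53.5. With mutated CTCF they were 1823 to 1939 and 2719 to 2850, and 71.1 to 73.8 and 34.2 to 44.0. In the control the trophoblast and endoderm sums were also higher with IAA and the stem cell sum lower, without overlap. The part of these markers was not tested.

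The test of the difference between the IAA responses called 0 of 10 members for wild-type CTCF against the control and 0 for mutated CTCF against the control (0 at an unadjusted p under 0.05 in each), where 1.41% and 1.64% of all genes were called and 11.8% and 12.5% reached the unadjusted p. For Hoxb9 the difference of responses was -0.16 (95% interval -0.53 to 0.21) with wild-type and -0.17 (-0.54 to 0.20) with mutated CTCF, and for Hoxb13 it was -0.43 and -0.56 (adjusted p = 0.745 and 0.610). Without IAA, 0 of 10 members differed between wild-type CTCF and the control (0 unadjusted, where 0.897% of all genes were called and 12.3% reached the unadjusted p) and 0 between mutated CTCF and the control (1 unadjusted, where 5.55% and 20.5% did). Hoxc13 stood between 175 and 255 over the 12 libraries of this series, Hoxc4 between 93.3 and 147, Hoxc12 between 27.0 and 50.8, and Hoxc11, Hoxc10, Hoxc5 and Hoxd13 between 3.34 and 27.9. These comparisons share control libraries.

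The 4 members listed in every table can be set side by side, with the reservation that levels were set per table. Hoxb9 and Hoxc13 were lowest in the serum libraries (23.0 to 38.5 and 25.5 to 42.4) and highest with the Chd4 hairpin (265 to 269 and 435 to 451). Hoxd13 was highest at 12 h in RAD21 AID cells. Hoxb13 went down in CTCF AID cells at 12 h without passing the test and up with IAA in the overexpression control.

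**Figure D4:**
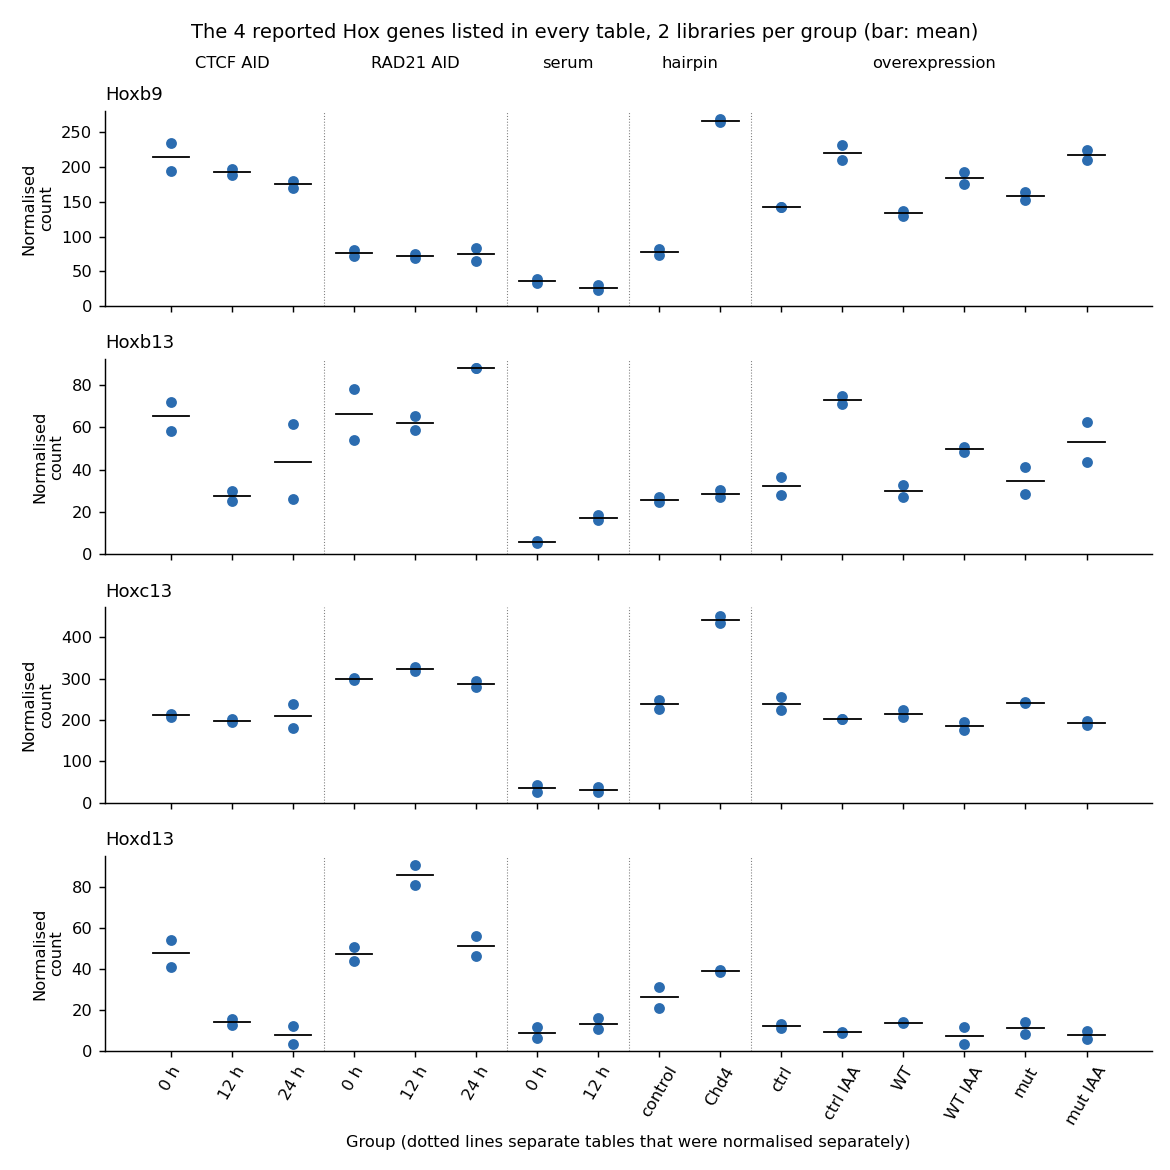
Normalised counts of Hoxb9, Hoxb13, Hoxc13 and Hoxd13 in all 16 groups; points are the 2 libraries, bars their mean, and dotted lines separate tables that were normalised separately. Hoxb9 and Hoxc13 peak with the Chd4 hairpin and are lowest in serum, and Hoxd13 peaks at 12 h in RAD21 AID cells (90.9 and 81.1).

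Compared per kilobase of exon, the levels were led by the same few genes. Over all libraries of a table, Hoxc13 had the highest mean in CTCF AID (84.0 per kb), RAD21 AID (123), overexpression (86.6), hairpin (138) and serum (13.4) cells. In untreated CTCF AID cells Hoxc13 (85.8 per kb) and Hoxb9 (83.4) led, and their libraries overlapped per kb; then came Hoxc4 (50.7) and Hoxb13 (29.6). The HoxA members lay between 7.54 (Hoxa4) and 15.3 (Hoxa7) per kb there. In untreated RAD21 AID cells Hoxc13 (122 per kb) was followed by Hoxc4 (45.5) and Hoxd9 (38.6), and the lowest were Hoxd10 (2.09) and Hoxd11 (1.35). Of the 27 listed members only Hoxb9, Hoxb13, Hoxc13 and Hoxd13 were listed in all 5 tables, and all 4 are posterior.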

How the data were processed

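Transcripts of E14 mouse embryonic stem cells were sequenced in 32 libraries, 2 for each of 16 groups. The values used are the authors' deposited normalised counts, a signal that is never negative, in 5 tables that were normalised separately. The submitters' processing notes name Trim Galore, Bowtie2, STAR, RSEM, DESeq2 and the build mm10, without versions or roles; which tool made these values, the strand use in counting and the rule for listing a gene are not given in the sources used here. Whole reads could not be recovered from the values, so no count test was run and the depth is known only roughly (14127231 to 23912294 reads if the best step is 1 read). Columns were matched to samples by name, and 0 columns were left unmapped.

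A gene was tested in a table where its mean was 10 or more. The fit used log2(value + 1) and limma 3.58.1 under R 4.3.3 (all groups of a table together, mean trend, Benjamini-Hochberg over all genes tested, called at adjusted p under 0.05). The fit was tested on simulated data. Every Hox gene that passed the filter in a table is named, and each called Hox gene has its log2 difference, SE and adjusted p; from each other gene list and comparison at most the 2 called genes with the largest difference and non-overlapping libraries are named. A few genes of the cluster and the lists are not reported here, and counts over members and lists leave them out, while the fits use whole tables. The members and the lists were chosen with earlier results of these data known. Positions and exon lengths are from GENCODE M21 (GRCm38), and promoter sequences from RefSeq (GRCm38.p6). A pseudocount of 5, no filter, a filter at 100, median-of-ratios and quantile rescaling, fits of only the compared groups, a replicate block, grouping by treatment label and leaving out each library were tried. Same-numbered libraries did not deviate together (r from -0.06 to 0.10 over the pairs of groups), so the numbers were not taken as pairs.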

Additional observations from a re-analysis of the deposited data

Results flagged for a closer look

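For 4 pairs of responses of tested members, both libraries moved one way in one table and both the other way in another. Each table was normalised separately and the differences were not tested. Hoxb13 differed by -1.22 on the log2 scale after 12 h of IAA in CTCF AID cells, by 1.42 in the serum libraries and by 1.15 with IAA in the overexpression control. Hoxc10 differed by -0.50 in CTCF AID cells and by 0.37 in the overexpression control. Hoxb9 differed by -0.42 in serum and by 0.62 in the overexpression control. Of these values, those of Hoxb13 and Hoxb9 in the overexpression control passed their own test. Hoxa3 is not among these pairs because it was under the filter in the overexpression series. Its libraries, given above, also moved in opposite directions. They were lower after 12 h of IAA in CTCF AID cells, where Hoxa3 was called, and higher with IAA in the overexpression control, where it was not tested.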

How the results depend on the processing

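Counts of called Hox genes depended mostly on the filter and on single libraries. With a filter at 100 the counts were 0 after CTCF degradation at 12 h and 0 at 24 h, 2 with the Chd4 hairpin and 1 with IAA in the overexpression control, since only 3, 3, 2 and 3 members were then tested; no member of the serum table was left. With no filter, 2 members were called after IAA with wild-type CTCF (Hoxc8 added), 2 with mutated CTCF (Hoxd8 added) and 1 between mutated CTCF and the control without IAA (Hoxd8). In fits of only the compared groups, 0 were called with wild-type and 0 with mutated CTCF, 7 at 12 h of CTCF degradation (Hoxb13 and Hoxd13 added) and 5 at 24 h (Hoxa2 lost). A pseudocount of 5 called 6 at 12 h (Hoxd13 added). Quantile normalisation called 1 member at 12 h of RAD21 degradation (Hoxd13) and 5 at 24 h of CTCF degradation (Hoxa2 lost). With the Chd4 hairpin it called 7: Hoxb7 was added, and Hoxc10 and Hoxa9 were lost, at log2 differences of 0.30 (adjusted p = 0.570) and 0.60 (adjusted p = 0.216). The replicate block called 6 members at 12 h of CTCF degradation (Hoxb7 added) and 5 at 24 h (Hoxa2 lost), and changed no other call; the numbers did not pair the libraries.

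Leaving out 1 library at a time gave 1 to 2 called members at 12 h and 1 to 6 at 24 h of CTCF degradation, 5 to 9 with the Chd4 hairpin, 1 to 2, 0 to 1 and 0 to 0 with IAA in the control, wild-type and mutated CTCF cells, and 0 in the other comparisons. No called difference changed sign. The Hoxa2 call at 24 h was lost in 7 of 10 settings (adjusted p up to 0.222). Grouping by the treatment label left no mutated CTCF group without IAA and no wild-type group with IAA. Depth limits most members, whose levels lie under 100 normalised counts.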
